A study of Mus musculus with 12 samples.

Results

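Effector chemokine receptors are the receptors through which activated and memory T cells leave the blood for inflamed tissue, gut, skin, liver or B cell follicles. The set described here is Cxcr3, Ccr4, Cxcr6, Ccr2, Ccr9, Cxcr5 and Ccr6, chosen by name. The 7 genes are 7 of 45321 genes summed from the deposited transcript tables, and all 7 were among the 14398 genes that had enough counts to be tested. Messenger RNA was measured in bulk in total CD4+ T cells purified untouched, that is by removing the other cells, from the spleens of C57BL/6 mice. CsA_PI cells received 1 µM cyclosporin A (CsA) for 1 h and were then stimulated for 2 h with 10 nM phorbol ester (PMA) and 1 µM ionomycin. ethanol_PI cells had the ethanol vehicle for 1 h before the same stimulation. CsA_US cells had CsA and ethanol_US cells had vehicle, and both were left unstimulated. Each group had 3 libraries, and the labels do not say whether these came from separate mice, so the p-values speak for these libraries' spread, which may be technical. PMA activates protein kinase C and ionomycin lets calcium in, so the antigen receptor is bypassed, and total CD4+ cells hold naive, memory and regulatory cells in 1 mixture. The comparisons ask which receptor genes respond to stimulation and which of these responses differ when calcineurin is blocked.

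Chemokine receptors are membrane proteins that signal through Gi proteins and turn a cell toward the source of its chemokine. Cxcr3 binds Cxcl9, Cxcl10 and Cxcl11 and is typical of Th1 cells. Ccr4 binds Ccl17 and Ccl22 and is found on Th2, regulatory and skin-homing T cells. Cxcr6 binds Cxcl16 and marks effector and tissue-resident cells, and Ccr2 binds Ccl2 and is best known from monocytes. Ccr9 binds Ccl25 and directs cells to the small intestine. Cxcr5 binds Cxcl13 and brings B cells and follicular helper cells into follicles, and Ccr6 binds Ccl20 and is found on Th17 cells and B cells. CsA, bound to cyclophilin, inhibits calcineurin, which dephosphorylates NFAT proteins and so allows them into the nucleus.

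Libraries held between 10523816 and 18468044 estimated counts, and a count of 0 would allow up to 0.163 to 0.287 CPM (counts scaled to the size of the library), counting error only. All 7 CD4 T cell markers examined, among them Cd3e, Cd4 and Trac, had counts in every group. The library labelled CsA_PI 2 stood apart from CsA_PI 1 and 3. Its level of Il2ra, the interleukin-2 receptor alpha chain, was 36.4 CPM, beside 662 and 709 CPM in the other CsA_PI libraries. For the immediate-early gene Egr1 it was 62.2 CPM, beside 1063 and 1202 CPM in the others. Both values lie within the ranges of the 6 unstimulated libraries, 29.8 to 55.5 CPM for Il2ra and 51.1 to 78.5 CPM for Egr1, so the library goes against its label on these genes. It was kept under its label and enters every CsA_PI mean and the fits of 12 libraries. Its values are shown apart, and the main results that rest on it are also given without it. The libraries numbered 2 in all 4 groups also carried more B cell marker RNA, with values given beside Cxcr5 and Ccr6. In bulk RNA, fewer cells of a type and less RNA per cell cannot be told apart.

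Cxcr6 and Cxcr3 were the most abundant of the 7 receptors in every group. On the length-scaled TPM scale, which allows genes to be compared, Cxcr6 averaged 413 TPM in CsA_PI, 353 TPM in ethanol_PI, 193 TPM in CsA_US and 286 TPM in ethanol_US. Cxcr3 came next at 92.7 TPM in CsA_PI, 172 TPM in ethanol_PI, 92.5 TPM in CsA_US and 103 TPM in ethanol_US, and its range over libraries did not overlap that of Cxcr6 in any group. Cxcr5 followed at group means of 23.7 to 35.8 TPM, and then Ccr2 at 9.25 to 19.4 TPM, with ranges that overlapped each other in all 4 groups. Ccr4, Ccr6 and Ccr9 took the last 3 places, and their order was not the same in every group. In CsA_PI the level was 8.40 ± 3.02 TPM for Ccr9, 6.94 ± 0.656 TPM for Ccr4 and 6.41 ± 7.53 TPM for Ccr6 (SD, n = 3), with ranges that overlapped between neighbours. In ethanol_PI it was 14.7 ± 3.72 TPM for Ccr4, 4.62 ± 0.804 TPM for Ccr6 and 2.44 ± 0.569 TPM for Ccr9 (SD, n = 3), with no overlap among the 3.

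**Figure D1:**
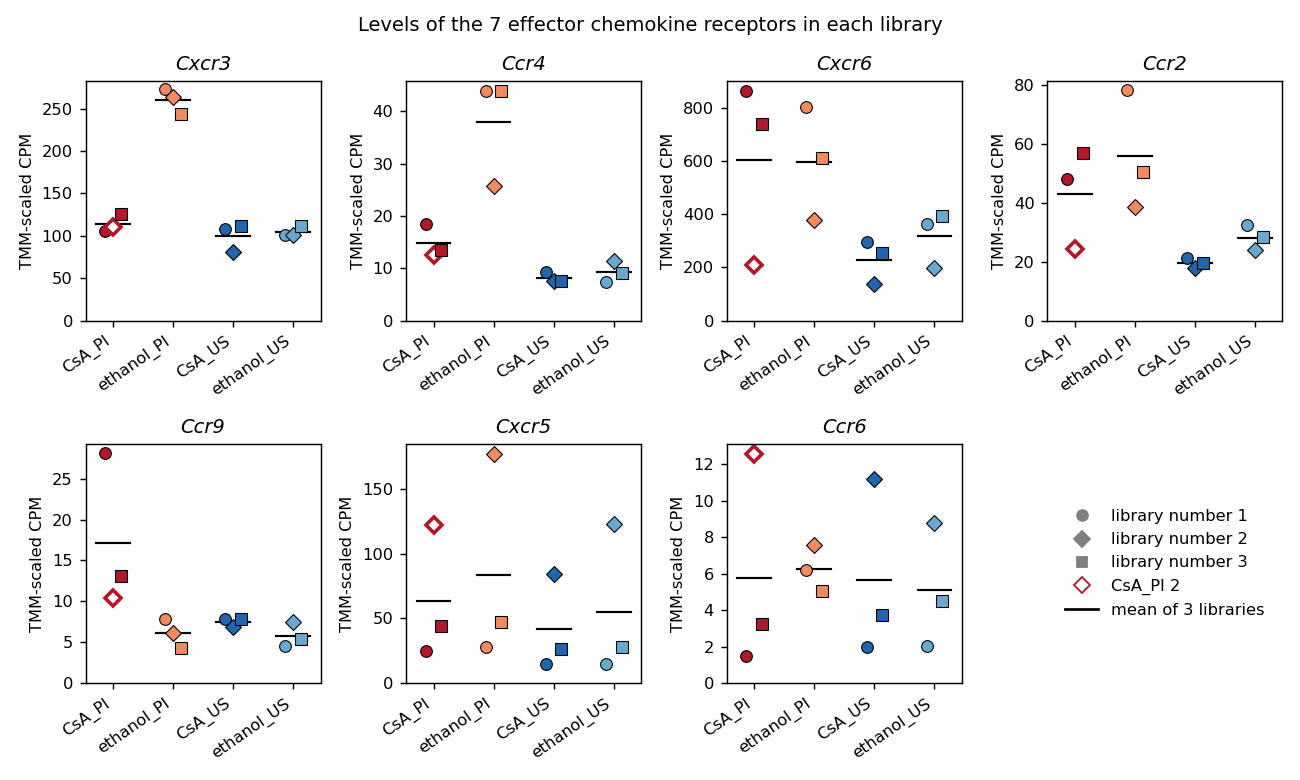
Level of each of the 7 receptors in every library, in TMM-scaled CPM, a panel per gene and a column per group, with the mean as a bar and CsA_PI replicate 2 as an open diamond. Cxcr3 in ethanol_PI, at 244 to 273 CPM, lies above all other groups, while Cxcr5 has a library numbered 2 above the rest in each group.

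5 of the 7 receptor genes lie on chromosome 9 (build mm10), as do 10 of 17 other chemokine receptors. Ccr9 (ENSMUSG00000029530) spans chr9:123678439-123784330, Cxcr6 (ENSMUSG00000048521) spans chr9:123806475-123811760 and Ccr2 (ENSMUSG00000049103) spans chr9:124101950-124113557, all on the plus strand. Ccr4 (ENSMUSG00000047898) lies at chr9:114490316-114504916 and Cxcr5 (ENSMUSG00000047880) at chr9:44511787-44561877, both on the minus strand. Cxcr3 (ENSMUSG00000050232) is at chrX:101731535-101734269 on the minus strand and Ccr6 (ENSMUSG00000040899) at chr17:8236043-8257141 on the plus strand. All are protein-coding.

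The 250 bases before the annotated start are shown for the 4 receptors whose responses differ most in kind: Cxcr3 and Ccr4, which rose with stimulation and were lower with CsA, Cxcr6, the most abundant, and Ccr9, which was higher with CsA. The sequences are those of the RefSeq promoter table for GRCm38.p6, which held 6 of the 7 receptors, and are written 5′ to 3′ on the strand of the gene. The start meant is the RefSeq start, while the gene spans above are those of the GENCODE annotation. The windows of Ccr4 and Ccr9 lie inside these spans, and those of Cxcr3 and Cxcr6 overlap theirs in part. Capitals mark GGAAA, the core that NFAT proteins recognise, or TGANTCA, the AP-1 core, on either strand (TTTCC is GGAAA read from the other strand).
Cxcr3, chrX:101734148-101734397, minus strand: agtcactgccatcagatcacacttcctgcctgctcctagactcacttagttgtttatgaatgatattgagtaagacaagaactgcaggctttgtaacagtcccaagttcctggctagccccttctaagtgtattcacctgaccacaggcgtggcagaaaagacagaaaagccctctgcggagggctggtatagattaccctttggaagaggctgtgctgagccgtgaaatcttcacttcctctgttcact
Ccr4, chr9:114496545-114496794, minus strand: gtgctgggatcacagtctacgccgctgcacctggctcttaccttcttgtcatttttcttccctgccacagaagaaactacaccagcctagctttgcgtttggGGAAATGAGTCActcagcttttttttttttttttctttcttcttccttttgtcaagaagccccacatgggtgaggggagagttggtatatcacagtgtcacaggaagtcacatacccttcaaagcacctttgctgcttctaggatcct
Cxcr6, chr9:123806227-123806476, plus strand: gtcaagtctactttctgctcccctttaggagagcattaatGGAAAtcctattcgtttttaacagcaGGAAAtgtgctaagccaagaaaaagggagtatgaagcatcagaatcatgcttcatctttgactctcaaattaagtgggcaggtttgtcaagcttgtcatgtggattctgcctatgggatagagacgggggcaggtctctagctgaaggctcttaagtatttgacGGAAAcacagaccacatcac
Ccr9, chr9:123766961-123767210, plus strand: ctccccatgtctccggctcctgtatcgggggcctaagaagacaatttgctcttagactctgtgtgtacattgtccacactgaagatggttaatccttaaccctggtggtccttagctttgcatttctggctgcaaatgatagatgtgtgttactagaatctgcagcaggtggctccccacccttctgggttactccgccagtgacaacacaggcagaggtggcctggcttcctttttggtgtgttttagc
The Ccr4 window holds GGAAATGAGTCA, both motifs joined end to end, starting 148 bases before the RefSeq start and inside the gene span given above. The windows of Cxcr3 and Ccr9 hold neither motif, and that of Cxcr6 holds 3 GGAAA. Among 32851 promoter windows of the same length, 55.6% hold GGAAA, 6.39% hold at least 3 GGAAA and 6.75% hold TGANTCA. Both motifs in this order with nothing in between are in 13 of them (0.0396%), and with 0 to 10 bases in between in 95 (0.289%). That joint search was made after the Ccr4 window had been read. A match of letters is a description and not a bound site.

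Cxcr3, the Th1 receptor, rose with stimulation in vehicle-treated cells and was lower when CsA was present. In CsA_PI it was at 106 and 125 CPM in libraries 1 and 3 and at 110.1 CPM in library 2, against 273, 263 and 244 CPM in ethanol_PI. Unstimulated cells had 108, 80.6 and 111 CPM in CsA_US and 101, 101 and 112 CPM in ethanol_US. The ethanol_PI libraries lie above all 9 others, and the CsA_PI libraries sit beside the unstimulated ones. Group means were 114 ± 10.3 CPM in CsA_PI, 260.0 ± 14.8 CPM in ethanol_PI, 99.7 ± 16.6 CPM in CsA_US and 105 ± 6.07 CPM in ethanol_US (SD, n = 3 each).

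The log2 fold change of Cxcr3 with CsA in stimulated cells was -1.19 ± 0.16 (SE; edgeR quasi-likelihood test with Benjamini-Hochberg adjustment, adjusted p = 0.000207), a 2.29-fold lower level. Without CsA_PI 2 it was -1.14 ± 0.17 (edgeR adjusted p = 0.000401). Stimulation in vehicle gave 1.31 ± 0.16 (edgeR adjusted p = 5.66e-05). With CsA, the stimulation difference of Cxcr3 was 0.19 on the log2 scale (edgeR adjusted p = 0.481), and 0.18 (edgeR adjusted p = 0.473) without CsA_PI 2. The interaction, the stimulation effect with CsA minus that in vehicle, was -1.12 ± 0.22 (edgeR adjusted p = 0.00795), and -1.08 (edgeR adjusted p = 0.00724) without CsA_PI 2. It was -0.76 (edgeR adjusted p = 0.0647) when libraries were scaled by their totals instead of TMM. Cxcr3 has a single annotated transcript, and none of its 31-base words occur in another gene.

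Ccr4, the receptor of Th2, regulatory and skin-homing cells, had the largest stimulation rise of the 7 in vehicle-treated cells. Its levels were 18.4 and 13.4 CPM in CsA_PI 1 and 3 and 12.5 CPM in CsA_PI 2, against 44.0, 25.8 and 44.0 CPM in ethanol_PI. It was at 9.37, 7.52 and 7.57 CPM in CsA_US and at 7.33, 11.4 and 9.02 CPM in ethanol_US. The stimulated vehicle libraries do not overlap any other group. CsA_PI lies between them and the unstimulated cells, above all 6 unstimulated libraries.

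Stimulation in vehicle changed Ccr4 by 2.03 ± 0.27 on the log2 scale (edgeR adjusted p = 0.000118), which is 4.10-fold. CsA in stimulated cells gave -1.36 ± 0.27 (edgeR adjusted p = 0.003), and -1.21 ± 0.30 without CsA_PI 2 (edgeR adjusted p = 0.01). Stimulation with CsA gave 0.85 (edgeR adjusted p = 0.0762) with all libraries and 0.94 ± 0.29 (edgeR adjusted p = 0.0252) without CsA_PI 2. The interaction was -1.18 ± 0.38 (edgeR adjusted p = 0.0693), and -1.03 (edgeR adjusted p = 0.112) without CsA_PI 2. It was called without ethanol_PI 2, at -1.39 (edgeR adjusted p = 0.0403), and without CsA_PI 1, at -1.37 (edgeR adjusted p = 0.0452). It was also called in libraries 1 and 3 alone, at -1.51 (edgeR adjusted p = 0.0174), and by DESeq2, at -1.17 (adjusted p = 0.0327). Regulatory T cell markers also moved with the groups: the summed TPM of Foxp3, Ikzf2, Il2ra and Ctla4 was 223 to 407 in CsA_PI, 573 to 726 in ethanol_PI, 129 to 153 in CsA_US and 171 to 199 in ethanol_US, and Il2ra and Ctla4 are themselves activation genes. Of these 4, Ikzf2 and Ctla4 were called lower with CsA in stimulated cells and none higher. The part of these cells in the Ccr4 difference was not tested.

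**Figure D2:**
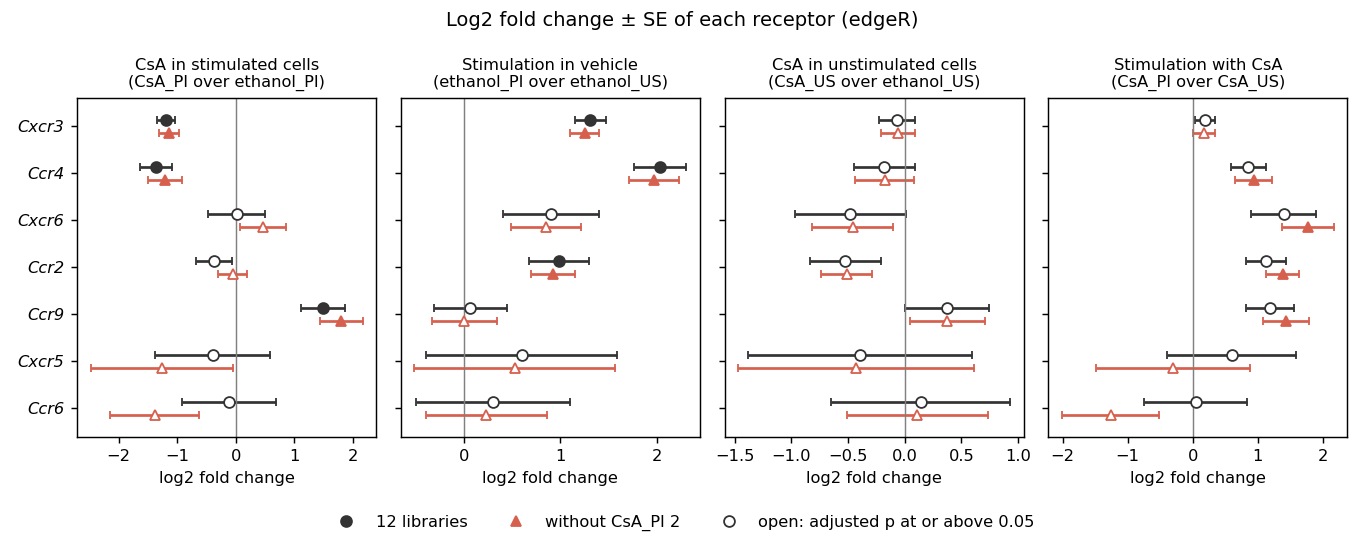
log2 fold change with its SE for each of the 7 receptors in 4 comparisons, filled where called, from the edgeR fit of 12 libraries and from the fit without CsA_PI 2. Cxcr3 and Ccr4 are below 0 with CsA in stimulated cells, at -1.19 and -1.36, and Ccr9 is above 0, at 1.49.

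Cxcr6, the receptor for Cxcl16, averaged 604 ± 348 CPM in CsA_PI, 598 ± 212 CPM in ethanol_PI, 229 ± 81.3 CPM in CsA_US and 319 ± 107 CPM in ethanol_US (SD, n = 3 each). It was at 864 and 738 CPM in CsA_PI 1 and 3 and at 209 CPM in CsA_PI 2, against 802, 379 and 613 CPM in ethanol_PI. Unstimulated levels were 295, 138 and 254 CPM in CsA_US and 365, 197 and 395 CPM in ethanol_US. In every group the library numbered 2 was the lowest, and CsA_PI 2 lies among the unstimulated libraries.

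CsA in stimulated cells gave Cxcr6 a log2 fold change of 0.01 ± 0.49 (edgeR adjusted p = 0.99), and 0.46 ± 0.40 (edgeR adjusted p = 0.475) without CsA_PI 2. Stimulation in vehicle gave 0.91 ± 0.49 (edgeR adjusted p = 0.172). It passed the threshold once replicate numbers were fitted as blocks, at 0.91 ± 0.23 (edgeR adjusted p = 0.00814). Stimulation with CsA gave 1.40 (edgeR adjusted p = 0.11) with CsA_PI 2 and 1.77 ± 0.40 (edgeR adjusted p = 0.0073) without it. The interaction was 0.49 (edgeR adjusted p = 0.733), and 0.92 (edgeR adjusted p = 0.337) without CsA_PI 2. Cxcr6 has a single annotated transcript, which lies within the span of Fyco1 on the other strand and shares no 31-base word with another gene.

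Ccr2, the receptor for Ccl2, rose with stimulation in vehicle with all libraries, by a margin that single libraries decided. Its levels were 48.0 and 56.8 CPM in CsA_PI 1 and 3 and 24.4 CPM in CsA_PI 2, against 78.4, 38.6 and 50.6 CPM in ethanol_PI. It was at 21.2, 17.9 and 19.7 CPM in CsA_US and at 32.4, 23.9 and 28.4 CPM in ethanol_US. The ethanol_PI libraries lie above all 6 unstimulated libraries, as do CsA_PI 1 and 3.

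Stimulation in vehicle gave Ccr2 a log2 fold change of 0.99 ± 0.31 (edgeR adjusted p = 0.0231). The call was lost without ethanol_US 2 (0.87, edgeR adjusted p = 0.0796), without ethanol_US 3 (0.94, edgeR adjusted p = 0.0691) and without ethanol_PI 1 (0.66, edgeR adjusted p = 0.131). It was also lost when libraries were scaled by their totals, at 0.36 (edgeR adjusted p = 0.305). CsA in stimulated cells gave -0.38 ± 0.31 (edgeR adjusted p = 0.428), and -0.06 (edgeR adjusted p = 0.917) without CsA_PI 2. Stimulation with CsA gave 1.13 (edgeR adjusted p = 0.0535) with all libraries and 1.39 ± 0.25 (edgeR adjusted p = 0.00113) without CsA_PI 2. The summed TPM of 8 monocyte and macrophage markers was 153 to 316 in CsA_PI, 80.1 to 226 in ethanol_PI, 108 to 277 in CsA_US and 110 to 296 in ethanol_US, highest in the libraries numbered 2, where Ccr2 was lowest. None of the 8 was called for CsA in stimulated cells or for stimulation in vehicle with all libraries. Without CsA_PI 2, the monocyte marker Ly6c2 was called higher for CsA in stimulated cells, at 0.93 (edgeR adjusted p = 0.00879), and for stimulation with CsA, at 1.12 (edgeR adjusted p = 0.00208). Ly6c2 was the only marker of the 8 called in these 2 comparisons. The median log2 difference of the 8 was -1.20 and -1.13 there, opposite in direction to Ly6c2. Itgam was at 0 in CsA_PI 1. The part of monocyte RNA in the Ccr2 values was not tested. Of the 31-base words in Ccr2 transcripts, 3.48% also occur in other genes, so some of its reads could be assigned elsewhere.

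Ccr9, the gut-homing receptor, was the only one of the 7 called higher with CsA in stimulated cells. It was at 28.1 and 13.1 CPM in CsA_PI 1 and 3 and at 10.4 CPM in CsA_PI 2, against 7.87, 6.11 and 4.31 CPM in ethanol_PI. Unstimulated cells had 7.86, 6.84 and 7.87 CPM in CsA_US and 4.51, 7.55 and 5.36 CPM in ethanol_US. All 3 CsA_PI libraries lie above the 9 others, whose groups overlap, and CsA_PI 1 is far above the rest.

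CsA in stimulated cells gave Ccr9 a log2 fold change of 1.49 ± 0.38 (edgeR adjusted p = 0.0133), a 2.82-fold higher level, and 1.80 ± 0.36 without CsA_PI 2 (edgeR adjusted p = 0.00292). Without CsA_PI 1 it was 0.95 ± 0.33 (edgeR adjusted p = 0.0572), and without ethanol_PI 3 it was 1.30 ± 0.43 (edgeR adjusted p = 0.0623). Stimulation in vehicle gave 0.07 ± 0.38 (edgeR adjusted p = 0.901). Stimulation with CsA gave 1.19 (edgeR adjusted p = 0.0758) with all libraries and 1.43 ± 0.36 (edgeR adjusted p = 0.00865) without CsA_PI 2. The interaction was 1.12 (edgeR adjusted p = 0.219), and 1.43 (edgeR adjusted p = 0.0804) without CsA_PI 2, so that the CsA difference was not shown to depend on stimulation.

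Counts of Ccr9 were low, at 134 to 354 in CsA_PI and 35 to 66 in ethanol_PI. Its transcript Ccr9-201 held 50.1% of the counts over all libraries, with 204, 90.4 and 107 estimated counts in CsA_PI, against 34.6, 35.9 and 11.97 in ethanol_PI. Ccr9-202 was at 0 in all 12. The gene overlaps 6 other annotated genes, and 6.82% of its 31-base words occur elsewhere, most of them in the overlapping Gm17200. Of the dendritic cell markers, among which plasmacytoid cells are known to carry Ccr9, the summed TPM was 13.5 to 15.5 in CsA_PI, 12.9 to 18.8 in ethanol_PI, 8.55 to 14.3 in CsA_US and 8.72 to 14.04 in ethanol_US. These ranges overlap between CsA_PI and ethanol_PI. Klk1, a plasmacytoid marker, was at 0 in all 3 ethanol_PI libraries and also in some of CsA_PI, and Cox6a2 was at 0 in some of ethanol_PI. Siglech, another plasmacytoid marker, was at 0.238, 4.23 and 0.588 CPM in CsA_PI 1, 2 and 3. In ethanol_PI 1, 2 and 3 it was at 0.596, 0.388 and 0.246 CPM. None of the tested dendritic markers was called with CsA in stimulated cells, with or without CsA_PI 2. Itgax and Zbtb46 were called higher with stimulation in vehicle, at 1.14 (edgeR adjusted p = 0.0425) and 1.71 (edgeR adjusted p = 0.00117). Without CsA_PI 2, Itgax, Xcr1 and Zbtb46 were called higher for stimulation with CsA, at 1.24, 1.36 and 0.93 on the log2 scale, in the same fit that called Ccr9. The part of dendritic cell RNA in the Ccr9 values was not tested.

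Naive T cell markers were also higher with CsA in stimulated cells. The summed TPM of 4 such markers, among them Ccr7 and Tcf7, was 2641 to 3473 in CsA_PI, 597 to 909 in ethanol_PI, 2376 to 3069 in CsA_US and 2520 to 2884 in ethanol_US. All 4 were called higher with CsA in stimulated cells by edgeR, and all 4 lower with stimulation in vehicle. Ccr9 averaged 6.10 ± 1.78 CPM in ethanol_PI and 5.81 ± 1.57 CPM in ethanol_US (SD, n = 3 each), a difference within the spread. The part of this marker difference in the Ccr9 value was not tested.

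Cxcr5 and Ccr6, the receptors that T cells share with B cells, differed between libraries more than between groups. Cxcr5 was at 25.1 and 43.9 CPM in CsA_PI 1 and 3 and at 122 CPM in CsA_PI 2, against 27.9, 177 and 46.9 CPM in ethanol_PI. It was at 15.3, 84.6 and 26.5 CPM in CsA_US and at 15.1, 123 and 27.9 CPM in ethanol_US. The library numbered 2 was the highest in all 4 groups, at 3.54 to 5.72 times the mean of the other two.

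Ccr6 was at 1.51 and 3.23 CPM in CsA_PI 1 and 3 and at 12.6 CPM in CsA_PI 2, against 6.20, 7.57 and 5.05 CPM in ethanol_PI. It was at 1.98, 11.2 and 3.75 CPM in CsA_US and at 2.03, 8.79 and 4.48 CPM in ethanol_US. Here too the library numbered 2 was the highest in every group, and the groups overlap with all libraries. Without CsA_PI 2, CsA_PI lies below ethanol_PI, at 1.51 to 3.23 CPM against 5.05 to 7.57 CPM, a difference that was not called. These levels rest on 19 to 184 counts a library.

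All 8 B cell markers, among them Cd79a, Cd79b and Ms4a1, were highest in the library numbered 2 in all 4 groups. Their summed TPM in libraries 1, 2 and 3 was 55.5, 1077 and 77.7 in CsA_PI, 45.6, 338 and 70.8 in ethanol_PI, 115, 907 and 162 in CsA_US and 120.0, 1035 and 164 in ethanol_US. Of the 14398 tested genes, 740 (5.14%) were highest in the library numbered 2 in all 4 groups, and 629 (4.37%) were lowest there. Cxcr6 and Ccr2 were among the lowest. The part of B cell RNA in the Cxcr5 and Ccr6 levels was not tested.

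**Figure D3:**
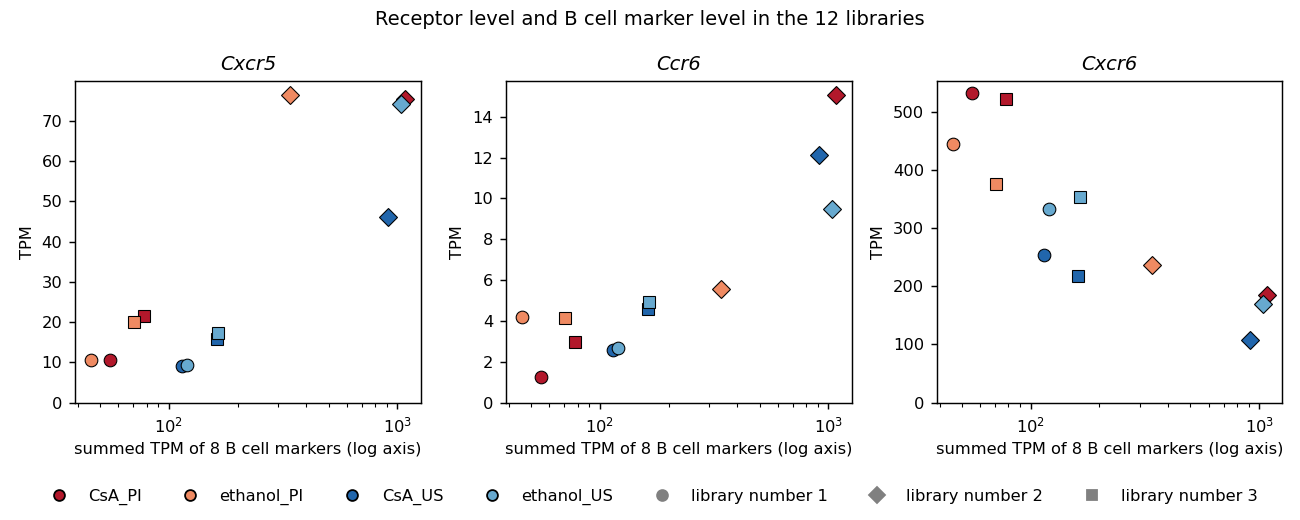
Cxcr5, Ccr6 and Cxcr6 levels (TPM) against the summed TPM of 8 B cell markers, on a log axis, a point per library, with the libraries numbered 2 as diamonds. Summed B cell markers are 338 to 1077 TPM in the 4 libraries numbered 2 and 45.6 to 164 TPM in the other 8.

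CsA in stimulated cells gave Cxcr5 a log2 fold change of -0.40 ± 0.98 (edgeR adjusted p = 0.825) and Ccr6 one of -0.11 ± 0.80 (edgeR adjusted p = 0.942). Without CsA_PI 2 these were -1.26 (edgeR adjusted p = 0.541) and -1.38 (edgeR adjusted p = 0.236). In libraries 1 and 3 alone they were -0.08 (edgeR adjusted p = 0.924) and -1.22 (edgeR adjusted p = 0.137). Stimulation in vehicle gave Cxcr5 0.60 ± 0.99 (edgeR adjusted p = 0.67). Fitting replicate numbers as blocks gave 0.70 ± 0.17 (edgeR adjusted p = 0.00761). That fit compares each ethanol_PI library with the ethanol_US library of its number. All 3 pairs of Cxcr5 values lie in the same direction, as do the 3 pairs of CsA_PI and CsA_US libraries. The share of all tested genes whose pairs do so was not counted. Of the 31-base words in Cxcr5 transcripts, 2.83% also occur in Bcl9l, which overlaps it on the other strand. Stimulation with CsA gave Cxcr5 0.60 (edgeR adjusted p = 0.754), and -0.30 (edgeR adjusted p = 0.887) without CsA_PI 2. For Ccr6 stimulation in vehicle gave 0.30 (edgeR adjusted p = 0.801), and stimulation with CsA gave 0.05 (edgeR adjusted p = 0.981), or -1.26 (edgeR adjusted p = 0.246) without CsA_PI 2.

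Among the 7 receptors, 2 were lower and 1 was higher with CsA in stimulated cells, where 12.7% of all tested genes were lower, 10.3% higher and 23.0% changed in either direction. Stimulation in vehicle raised 3 of the 7, where 20.1% of all tested genes rose and 39.8% changed in either direction. With the replicate block it raised 5 of the 7, where 21.3% of all tested genes rose. The median log2 difference of the 7 was -0.38 with CsA in stimulated cells and 0.91 with stimulation in vehicle, beside 0.06 and -0.02 over all tested genes. Without CsA_PI 2 these medians were -1.14 and 0.85, beside 0.05 and -0.08 over all tested genes. That fit keeps ethanol_PI 2, the library with the highest Cxcr5 value, 177 CPM. In libraries 1 and 3 alone the middle value of the 7 with CsA in stimulated cells was -0.26, that of Ccr2. The first median therefore depends on which libraries numbered 2 are kept, and -1.14 is not read as a fall of the set. These comparisons share the ethanol_PI libraries, so a high or low ethanol_PI value moves both. Scaling by library totals shifted the median of all genes by 0.34 with CsA in stimulated cells and by -0.61 with stimulation in vehicle. Under library totals 1 receptor was higher and 2 were lower with CsA in stimulated cells, where 19.9% of all genes were higher and 8.29% lower. With stimulation in vehicle 2 receptors were then higher, where 1580 of all genes were higher and 5437 lower, beside 2892 and 2836 under TMM.

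In unstimulated cells CsA changed none of the 7 receptors by edgeR, none at an unadjusted p under 0.05 and none by DESeq2, which called 0.0974% of all genes. The log2 differences ran between -0.52 for Ccr2 and 0.37 for Ccr9. Ccr2 did not overlap between the groups, at 17.9 to 21.2 CPM in CsA_US and 23.9 to 32.4 CPM in ethanol_US, and the CsA_US library was below the ethanol_US library of its number in all 3 pairs for both Ccr2 and Cxcr6. With so few libraries such orders also arise without any effect. The share of all tested genes that show them was not counted, so they are not read as an effect of CsA. Without CsA_PI 2, Ccr2 was under an unadjusted p of 0.05 (0.0423, edgeR adjusted p = 0.863). In libraries 1 and 3 alone Cxcr6 and Ccr2 both were (0.0293 and 0.0336, edgeR adjusted p = 0.962 and 0.985), as they were with the replicate block without CsA_PI 2 (0.00249 and 0.0144, edgeR adjusted p = 0.358 and 0.556). Over all genes 0.00695% were called, which is 1 gene, Gbp11. Stimulation in the presence of CsA gave no call among the 7 with all libraries, where 3.90% of all genes were called higher and 5.28% in either direction. At an unadjusted p under 0.05 there were 4 of the 7, and DESeq2 called 4, where it called 16.1% of all genes. Without CsA_PI 2, 4 of the 7 were called higher, namely Cxcr6, Ccr2, Ccr9 and Ccr4, where 14.1% of all genes were called higher. In the interaction 1 of the 7, Cxcr3, was called, where 6.19% of all genes were called lower and 9.72% in either direction.

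Of 17 other chemokine receptors, 12 had enough counts to be tested. With CsA in stimulated cells 2 were higher and 1 was lower. Cxcr4, the receptor for Cxcl12, was higher by 2.90 ± 0.47 on the log2 scale (edgeR adjusted p = 0.00103), and Ccr7, the lymph node homing receptor, by 2.17 ± 0.34 (edgeR adjusted p = 0.000723). Ccr8, known from Th2 and regulatory cells, gave -2.10 ± 0.33 (edgeR adjusted p = 0.000741). Ccr7 was at 3922 and 3890 CPM in CsA_PI 1 and 3 and 1704 CPM in CsA_PI 2, against 543, 1053 and 517 CPM in ethanol_PI. Ccr8 was at 76.0 and 103 CPM in CsA_PI 1 and 3 and 38.5 CPM in CsA_PI 2, against 318, 236 and 372 CPM in ethanol_PI. Without CsA_PI 2 the same 3 were called, Cxcr4 at 3.01, Ccr7 at 2.51 and Ccr8 at -1.76 (edgeR adjusted p = 0.00263, 2.56e-05 and 0.000431). The median of the 12 was 0.03, beside 0.06 over all genes.

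Stimulation in vehicle raised 3 of the 12, among them Ccr8 and Ccr1, and lowered Ccr7, Cxcr4 and Cxcr1. Ccr8 gave a log2 fold change of 2.76 ± 0.34 (edgeR adjusted p = 6.79e-05) and Ccr1, an inflammatory chemokine receptor, 2.89 ± 0.77 (edgeR adjusted p = 0.011). Ccr1 was not called without ethanol_PI 2, at 1.61 (edgeR adjusted p = 0.0681), and Ccr7 was not called without ethanol_PI 1, at -1.02 (edgeR adjusted p = 0.0659), or without ethanol_PI 3, at -0.995 (edgeR adjusted p = 0.0655). Cxcr1 was not called without ethanol_US 2, ethanol_PI 1 or ethanol_PI 2 (edgeR adjusted p = 0.0502, 0.0732 and 0.0775). Cxcr1 is given no fold, as it held 0, 0 and 1 counts in ethanol_PI, against 11, 23 and 19 in ethanol_US. The median of the 12 with stimulation was 0.46, beside -0.02 over all genes.

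**Figure D4:**
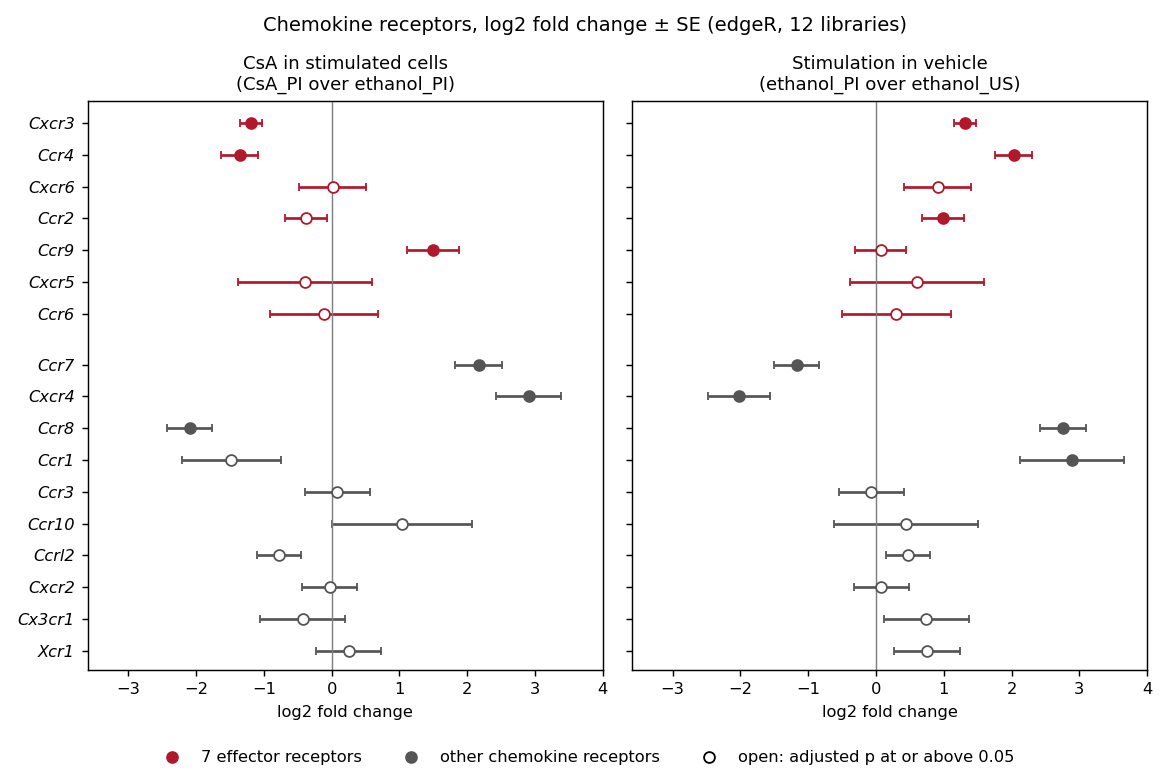
log2 fold change with its SE of the 7 effector receptors (red) and 10 of the 12 other tested chemokine receptors (grey) with CsA in stimulated cells (left) and with stimulation in vehicle (right), edgeR fit of 12 libraries. Filled points are called, Cxcr1 is left out for its few counts, and both panels use the ethanol_PI libraries; with CsA, Cxcr4 is highest at 2.90 and Ccr8 lowest at -2.10.

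Of 13 ligands of the 7 receptors, 7 had enough counts to be tested. Stimulation in vehicle raised 6 of these 7 and lowered none, with a median log2 difference of 3.17, beside -0.02 over all genes. The 6 were Cxcl9, Cxcl10, Cxcl11, Cxcl16, Ccl22 and Ccl20, where Cxcl11 is annotated as a polymorphic pseudogene. Ccl20, the ligand of Ccr6, had 4 and 7 counts in CsA_PI 1 and 3 and 2 counts in CsA_PI 2, against 70, 148 and 125 in ethanol_PI. It was the only ligand called lower with CsA in stimulated cells, at -5.09 ± 0.98 on the log2 scale (edgeR adjusted p = 0.00279), and none was called higher. Cxcl10, a ligand of Cxcr3, gave 3.29 ± 0.93 with stimulation in vehicle (edgeR adjusted p = 0.0174), a call lost without ethanol_US 1 (2.97, edgeR adjusted p = 0.0605) or ethanol_US 3 (2.88, edgeR adjusted p = 0.0614). With CsA in stimulated cells Cxcl10 gave 1.47 (edgeR adjusted p = 0.264), and without CsA_PI 2 it was called higher, at 2.06 (edgeR adjusted p = 0.0327), while its receptor Cxcr3 was lower. Ccl22, a ligand of Ccr4, gave 4.26 ± 0.92 with stimulation in vehicle (edgeR adjusted p = 0.00307), from 97 counts in ethanol_PI and 9 in ethanol_US.

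All 21 genes on a list of signalling components downstream of chemokine receptors were tested. With CsA in stimulated cells 7 were higher and 2 lower, with a median of 0.31 beside 0.06 over all genes. Pik3r5, a regulatory subunit of the PI3-kinase that Gβγ activates, gave 1.78 ± 0.26 (edgeR adjusted p = 0.000446), and Rasgrp2, the exchange factor that activates Rap1, gave 1.44 ± 0.22 (edgeR adjusted p = 0.000593). Gnaq, the Gq alpha subunit, gave -1.54 ± 0.35 (edgeR adjusted p = 0.00674). Without CsA_PI 2, 4 were higher (Pik3r5, Rasgrp2, Gnb2 and Rac1) and 3 lower (Gnaq, Rap1a and Gnai3), with Pik3r5 at 1.41, Rasgrp2 at 1.205 and Gnaq at -1.80. Grk2, a kinase that desensitises the receptors, was among the 7 with all libraries, but was not called in that fit, at 0.61 (edgeR adjusted p = 0.102), nor were Pik3cg, at 0.67 (edgeR adjusted p = 0.115), and Arrb1, at 0.52 (edgeR adjusted p = 0.0585). Leaving out ethanol_PI 1, 2 or 3 also ended the call of Grk2, at 0.97, 1.07 and 1.25 on the log2 scale. Stimulation in vehicle raised 2 of the 21 and lowered 11, with a median of -0.54. Pik3r5 gave -2.08 ± 0.27, Rasgrp2 gave -2.02 ± 0.22 and Grk2 gave -1.81 ± 0.35 there (edgeR adjusted p = 8.4e-05, 2.99e-05 and 0.00151).

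Of 10 transcription factors of helper T cell lineages, 1 was higher and 1 was lower with CsA in stimulated cells, with a median of -0.51 beside 0.06 over all genes. Tbx21, which encodes T-bet, the Th1 factor known to activate Cxcr3 transcription, was at 66.8 and 68.9 CPM in CsA_PI 1 and 3 and 33.7 CPM in CsA_PI 2, against 577, 612 and 483 CPM in ethanol_PI. It was at 42.7, 26.8 and 23.7 CPM in CsA_US and at 37.3, 35.6 and 32.8 CPM in ethanol_US. Tbx21 and Cxcr3 both had their 3 highest libraries in ethanol_PI, as did Ccr4 and Ccr8. The share of all tested genes with that order was not counted, so it is not read as a link between these genes. The part of T-bet in the Cxcr3 levels was not tested. The log2 fold change of Tbx21 was -3.30 ± 0.30 with CsA in stimulated cells (edgeR adjusted p = 1.63e-05) and 3.98 ± 0.31 with stimulation in vehicle (edgeR adjusted p = 3.68e-06). Bcl6, the factor of follicular helper cells, which carry Cxcr5, gave 1.74 ± 0.23 with CsA in stimulated cells (edgeR adjusted p = 0.000188). Without CsA_PI 2 these CsA values were -3.001 for Tbx21 and 1.97 for Bcl6 (edgeR adjusted p = 3.86e-06 and 1.02e-05). Stimulation in vehicle raised 4 of the 10 and lowered 1. Batf gave 2.52 ± 0.52 (edgeR adjusted p = 0.003).

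The genes most like each receptor over the 12 libraries were ranked among the 8021 genes averaging 10 CPM or more, by the root mean square difference of centred log2 values, as a description. Nearest to Cxcr3 were Wdr5, Ppp5c and Farsa, with differences of 0.110, 0.111 and 0.113. Nearest to Ccr4 were Atp2b1, Tomm70a and Tbl1x at 0.233 to 0.240, nearest to Cxcr6 were Slc2a3, Zfp948 and Spry2 at 0.208 to 0.330, and nearest to Ccr2 were Slc16a10, Stard4 and 2610005L07Rik at 0.206 to 0.227. Nearest to Cxcr5 were Cd74, Cd40 and Fam129c at 0.310 to 0.318, of which Cd74 and Cd40 are genes of antigen-presenting cells, B cells included. Ccr6 and Ccr9 were below 10 CPM on average and were not ranked.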

How the data were processed

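RNA was sequenced in 12 libraries made with SMART-seq, a full-length cDNA method with PCR amplification. The submitters' processing notes name cutadapt, kallisto and mm10; versions, transcript annotation and strand setting were not given in the sources used here. The deposited tables hold the authors' estimated counts per transcript, not scaled for depth, and the authors' TPM, scaled for length and depth. Both were summed per gene through GENCODE identifiers on mm10: 108214 of 109617 transcripts matched, and the 1403 others held 0.494% to 0.629% of a library's counts. Estimated counts were rounded and tested with edgeR 4.0.16 in R 4.3.3 (TMM, minimum count 10, minimum total 15, robust quasi-likelihood fit of all 4 groups), with a call at an adjusted p under 0.05 over all 14398 genes tested. SE is the log2 fold change over the root of its F. Levels are TMM-scaled CPM. DESeq2 1.42.0, other scalings, no filter, the replicate block and leaving out each library were alternatives. On data simulated for CsA in stimulated cells (14398 genes, 200 changed), 26% of 2-fold and 97% of 4-fold changes were called. All genes were drawn at 1 dispersion of 0.09, with no effect of library number and no library like CsA_PI 2. These rates therefore do not carry over to genes that vary more, such as Cxcr5 and Ccr6.

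Equally numbered libraries deviated together, with correlations of 0.107 to 0.208 between the stimulated groups, 0.143 to 0.319 between the vehicle groups and 0.196 to 0.325 between the unstimulated groups, so blocked values of a receptor in these 3 comparisons are printed where they change a call; the labels do not say what a number shares. Between the CsA groups they were 0.0333 to 0.123, not all above 0.1, so blocked values of stimulation with CsA and of the interaction are given in the closing section. The 7 receptors and all lists were chosen with earlier results of these data known. By rule, the 7 receptors are named, and up to 3 genes with the largest called log2 change of each related list in the 2 comparisons that involve ethanol_PI. The 3 genes nearest each of the 5 receptors averaging 10 CPM or more are named too. Outside this rule, other genes were named after their values were seen. These are Ccr7 and Cxcr4 in vehicle, Cxcl10 and Grk2 with CsA, Cxcl9, Cxcl11, Cxcl16, Gnb2, Rac1, Rap1a, Gnai3, Pik3cg, Arrb1 and some cell type markers. Some genes of these lists are counted but not reported here by name.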

Additional observations from a re-analysis of the deposited data

Results flagged for a closer look

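The stimulation effect with CsA minus that in vehicle, the interaction in the edgeR fit of 12 libraries, passed an adjusted p of 0.05 for 8 of the genes named above with all libraries. The list genes among them were named for large called changes in 2 comparisons that share the ethanol_PI libraries with the interaction. That choice favours interaction calls, so their number cannot be set against the 9.72% of all tested genes called. Cxcr3 gave -1.12 ± 0.22 on the log2 scale (SE; edgeR adjusted p = 0.00795). Among the other receptors, Cxcr4 gave 2.85 (edgeR adjusted p = 0.0153), Ccr7 gave 1.86 (edgeR adjusted p = 0.027) and Ccr8 gave -1.59 (edgeR adjusted p = 0.0456). Among the lineage factors, Tbx21 gave -3.13 (edgeR adjusted p = 0.000766) and Bcl6 gave 1.92 (edgeR adjusted p = 0.00282). Among the signalling genes, Pik3r5 gave 2.00 (edgeR adjusted p = 0.00495) and Rasgrp2 gave 1.13 (edgeR adjusted p = 0.0366). In the 12 fits that each left out 1 library, the call of Ccr8 was lost in 9 (edgeR adjusted p = 0.0509 to 0.126), that of Ccr7 in 8 (edgeR adjusted p = 0.0519 to 0.0793) and that of Rasgrp2 in 8 (edgeR adjusted p = 0.0524 to 0.0914). Scaling by library totals ended the calls of Ccr8 (-1.28, edgeR adjusted p = 0.0674) and of Cxcr3 (-0.76, edgeR adjusted p = 0.0647). Cxcr4, Tbx21, Bcl6 and Pik3r5 kept their calls under the alternatives run. Without CsA_PI 2 all 8 were called. Among the cell type markers named above, which are outside this count, Ctla4 was also called lower and Tcf7 higher in the interaction with all libraries.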

How the results depend on the processing

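Over the 7 receptors and 5 comparisons, 602 of 693 alternative values kept their direction and their side of the threshold, 7 lost a call, 30 gained one, 54 changed sign with no call in either fit, and none reversed with a call. The calls of Cxcr3 and Ccr4 in stimulated cells and in vehicle were not among those lost. With the replicate block, 5 receptors were called higher with stimulation in vehicle, also without CsA_PI 2 (5), against 3 without the block; it changed no call of a receptor for CsA in stimulated or in unstimulated cells. For stimulation with CsA it called Cxcr6 (1.27, edgeR adjusted p = 0.049) and Ccr2 (1.07, edgeR adjusted p = 0.049). Without CsA_PI 2 the block called both of these and also Cxcr5 (0.77, edgeR adjusted p = 0.00434), Ccr9 (1.41, edgeR adjusted p = 0.00662) and Ccr4 (0.89, edgeR adjusted p = 0.0369). In the interaction that fit called Cxcr6 (0.69, edgeR adjusted p = 0.0319) beside Cxcr3. For stimulation with CsA, the calls among the receptors were 0 with all libraries, 1 with no filter, 2 with the replicate block, 4 with DESeq2, 4 in libraries numbered 1 and 3 and 5 with the replicate block without CsA_PI 2; leaving out each library gave 0 to 4. Over all genes that comparison had 760 calls, against 5 under library totals, 441 with the replicate block, 0 when only its groups were fitted, 1909 with DESeq2, 4437 in libraries numbered 1 and 3, 4831 with the replicate block without CsA_PI 2, and 0 to 4321 with each library left out. For CsA in unstimulated cells, 1 gene was called, against 17 with DESeq2, 0 in libraries numbered 1 and 3, 15 with the replicate block without CsA_PI 2, and 0 to 7 with each library left out. In the interaction 1400 genes were called, against 2274 with the replicate block without CsA_PI 2 and 787 to 1865 with each library left out; the receptors called were 1, against 0 under library totals, 2 with DESeq2, 2 in libraries numbered 1 and 3, 2 with the replicate block without CsA_PI 2, and 1 to 2 with each library left out. Leaving out each library gave 2233 to 3393 genes for CsA in stimulated cells (3318 with all) and 4511 to 6581 for stimulation in vehicle (5728 with all), and 2 to 3 receptors in each. The fits without CsA_PI 2, of libraries numbered 1 and 3 alone and of the block without CsA_PI 2 answer to a library doubted after its values were seen, and the latter 2 were added then. The cause of these differences was not tested. Depth limits Ccr6 and Ccr9 most, at 19 to 354 counts a library.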
